A study of Mus musculus with 12 samples.

Results

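The 10 genes described here are used as T cell markers: Cd3e, Cd3d, Cd3g, Lck, Trac, Il7r, Cd4, Cd8a, Cd8b1 and Cd5. Their levels are those of whole mouse lung, and how much other cells add to them was not tested. They were taken by symbol from a table of 23127 genes, and all 10 were found. RNA sequencing of whole lung covered 12 C57BL6/J mice in 3 groups of 4. The groups were 0-week controls, mice given L-NAME with a high-fat diet for 2 weeks, and mice given both for 5 weeks. L-NAME, an inhibitor of nitric oxide synthases, was in the drinking water at 0.5 g/L, and 60% of the diet was lipid. The 2 agents were always given together, the controls are the only untreated group, and so time on study and treatment cannot be told apart. The labels number each mouse but give no age or sex. No difference in any of the 10 genes passed the test after correction over all genes tested.

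T cells recognise peptides through a receptor whose variable chains sit in the membrane with the invariant CD3 chains, which carry the signal inward. The kinase Lck starts that signal, and it is brought to the receptor by the coreceptors CD4, on helper and regulatory T cells, or CD8, on cytotoxic T cells. CD5 damps receptor signalling, and the IL-7 receptor keeps resting T cells alive. The lung holds T cells that reside in the tissue and others that pass through in blood. In RNA from a whole organ, fewer cells of a type and less RNA per cell cannot be told apart.

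The genes of the CD3 chains lie side by side on chromosome 9. The deposited table names no genome build. The submitters' processing notes name mm10, which is GRCm38, yet the deposited positions of these genes differ from the GRCm38 positions of the promoter windows. The 2 sets of coordinates therefore cannot be set against each other. The table places Cd3g (ENSMUSG00000002033) at 44880870 to 44891729 on the minus strand. It places Cd3d (ENSMUSG00000032094) at 44893084 to 44898637 on the plus strand, with a gap of 1354 bp, and Cd3e (ENSMUSG00000032093) at 44910038 to 44920925 on the minus strand. Lck (ENSMUSG00000000409) lies on chromosome 4 at 129442137 to 129467434, minus strand, and Trac (ENSMUSG00000076928), the constant region of the receptor alpha chain, on chromosome 14 at 54457978 to 54461663, plus strand. The 3 coreceptor genes lie on chromosome 6: Cd8b1 (ENSMUSG00000053044) at 71299772 to 71314478 and Cd8a (ENSMUSG00000053977) at 71350411 to 71356157, both on the plus strand, and Cd4 (ENSMUSG00000023274) at 124841655 to 124865184 on the minus strand. Il7r (ENSMUSG00000003882) lies on chromosome 15 at 9505874 to 9530262, and Cd5 (ENSMUSG00000024669) on chromosome 19 at 10694480 to 10716366, both on the minus strand. No member overlapped another gene of the table.

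RefSeq promoter windows on GRCm38.p6, from 250 bases before to 50 after a transcript start, were matched for 7 of the 10 genes, with 8 windows because Lck has 2 starts. Trac, Cd4 and Cd8b1 were not matched. The windows of the CD3 cluster and of Lck are printed because the CD3 genes are neighbours whose levels are compared below, and because Lck had the greatest log2(CPM + 1) difference of the members between 5 and 0 weeks. Each is given 5′ to 3′ on the strand of its gene. Capitals mark letters searched for on both strands. For ETS factors these were AGGAAG on either strand. For E-box proteins they were CAGGTG, with CAGCTG searched for separately. For TCF/LEF factors they were CTTTGA on either strand. For GATA factors they were AGATAA on either strand. For RUNX factors they were TGTGGT on either strand.
Cd3e, chr9:45009562-45009861, minus strand: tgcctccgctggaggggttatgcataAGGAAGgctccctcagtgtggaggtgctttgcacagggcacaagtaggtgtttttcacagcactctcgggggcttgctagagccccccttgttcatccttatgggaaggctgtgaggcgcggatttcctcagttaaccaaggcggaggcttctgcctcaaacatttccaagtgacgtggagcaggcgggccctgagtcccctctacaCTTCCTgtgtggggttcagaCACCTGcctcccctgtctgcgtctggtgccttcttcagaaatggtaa
Cd3d, chr9:44981536-44981835, plus strand: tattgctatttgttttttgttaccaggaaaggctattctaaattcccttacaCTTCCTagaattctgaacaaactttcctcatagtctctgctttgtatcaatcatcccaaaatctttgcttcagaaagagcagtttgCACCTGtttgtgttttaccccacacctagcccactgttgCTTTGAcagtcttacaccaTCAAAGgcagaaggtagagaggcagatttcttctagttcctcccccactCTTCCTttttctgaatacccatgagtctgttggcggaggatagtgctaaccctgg
Cd3g, chr9:44980382-44980681, minus strand: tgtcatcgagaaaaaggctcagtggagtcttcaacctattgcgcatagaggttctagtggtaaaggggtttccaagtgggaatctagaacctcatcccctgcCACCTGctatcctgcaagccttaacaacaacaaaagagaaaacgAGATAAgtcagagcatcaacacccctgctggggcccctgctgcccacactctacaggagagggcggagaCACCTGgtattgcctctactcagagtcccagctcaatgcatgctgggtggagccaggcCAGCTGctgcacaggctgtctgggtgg
Lck, upstream start, chr4:129573592-129573891, minus strand: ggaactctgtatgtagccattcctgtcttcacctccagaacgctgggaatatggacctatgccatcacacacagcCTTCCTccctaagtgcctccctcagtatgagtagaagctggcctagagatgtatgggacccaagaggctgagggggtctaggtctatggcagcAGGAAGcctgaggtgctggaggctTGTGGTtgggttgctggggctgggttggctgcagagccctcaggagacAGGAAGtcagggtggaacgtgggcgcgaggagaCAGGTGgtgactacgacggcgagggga
Lck, downstream start, chr4:129558323-129558622, minus strand: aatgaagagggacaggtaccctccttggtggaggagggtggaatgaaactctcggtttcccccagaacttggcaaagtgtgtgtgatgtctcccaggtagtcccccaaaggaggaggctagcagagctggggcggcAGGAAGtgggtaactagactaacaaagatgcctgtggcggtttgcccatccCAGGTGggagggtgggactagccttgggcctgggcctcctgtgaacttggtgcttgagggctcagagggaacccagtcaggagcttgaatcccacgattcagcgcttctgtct

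Cd3d and Cd3g start 1355 bp apart and are read away from each other, and the 2 Lck starts lie 15269 bp apart. The ETS letters AGGAAG were found in 6 of the 8 member windows, against 35.4% of all 32851 windows. The E-box letters CAGGTG were also found in 6 of 8, all 5 printed windows among them, against 20.2% of all. The other E-box stood in 2 of 8 windows (16.3% of all), the RUNX letters in 2 (16.8%), the TCF/LEF letters in 1 (16.0%) and the GATA letters in 1 (11.2%). The letters TATAAA, known as the core promoter box of that name, stood in 0 of the 8 windows and in 13.6% of all. These matches describe letters in the windows and show no binding.

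The step between low values puts the depth at 26000000 to 34100000 assigned reads per library. At that depth the members rested on between 46 reads (Cd5) and 528 reads (Lck) in a library. Lung markers were high in every library: the surfactant gene Sftpc lay between 9794 and 18046 CPM (read counts scaled to the library's total) and the endothelial gene Cdh5 between 712.6 and 1014 CPM. The 3 thymocyte markers found in the table (Rag1, Dntt and Arpp21) summed to at most 1.01 CPM in any library. Control replicate 2, 2-week replicate 3 and 5-week replicate 3 were marked as standing apart from the other libraries in overall expression. The measure behind this choice is not shown here. Results were also computed without these 3.

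All 10 members passed the filter of a mean of 1 CPM and were among the 15562 genes tested. Per kilobase of exon, Trac had the highest mean over the 12 libraries at 4.86 ± 1.48 CPM per kb (SD, n = 12). It stood above Lck (3.48 ± 1.09) in 12 of 12 libraries, and Lck stood above Cd8b1 (2.65 ± 0.96) in 11. Cd8b1 was above Cd3d (2.26 ± 1.15) in 10. Cd3d had a slightly higher mean than Il7r (2.21 ± 0.48) but stood above it in only 3 of 12. Its mean was raised by 5-week replicate 3, at 5.73 CPM per kb, whereas no other library exceeded 2.42. Cd3g (1.25 ± 0.43), Cd8a (1.23 ± 0.40), Cd4 (1.18 ± 0.27) and Cd3e (1.15 ± 0.28) were close, each above the next in 7 or 8 libraries. Cd5 was lowest at 0.55 ± 0.21 and below Cd3e in 12 of 12.

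Lck, the kinase that starts receptor signalling, had 11.5, 8.61, 6.12 and 8.52 CPM in control replicates 1 to 4. It had 7.26, 6.38, 8.00 and 13.0 CPM in the 2-week libraries and 11.6, 11.7, 16.5 and 12.9 CPM in the 5-week libraries. Every 5-week library stood above every control, by a narrow gap between 11.6 and 11.5 CPM, and 2-week replicate 4 lay among the 5-week libraries. The mean was 13.2 ± 2.28 CPM after 5 weeks and 8.70 ± 2.22 CPM in controls (SD, n = 4 each), 1.52 times as high. The log2 difference on the log2(CPM + 1) scale was 0.56 ± 0.21 (SE), with a limma adjusted p of 0.543, and Lck was the only member whose groups did not overlap in this comparison. Groups that did not overlap were found for 3.65% of all tested genes in that direction and for 1.36% in the other, in which no member was found. The adjusted p lay between 0.353 and 0.902 over 22 alternatives.

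**Figure D1:**
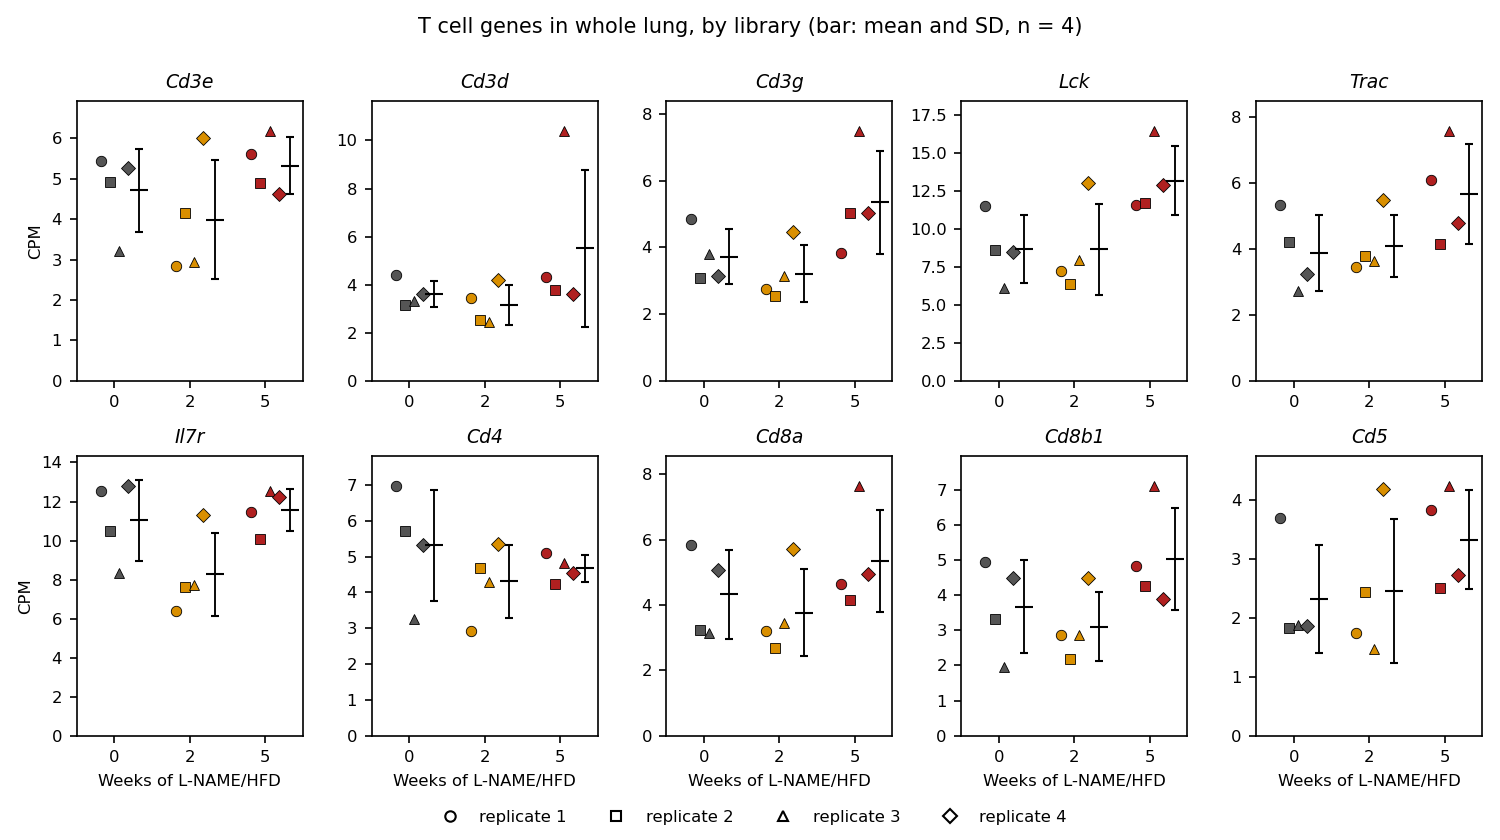
Level of each T cell gene in each library, in CPM, by weeks of treatment, with points for libraries and bars for the mean and SD of 4 libraries. The 5-week libraries of Lck stand between 11.6 and 16.5 CPM, and replicate 3 is the highest of them for 9 of the 10 genes.

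The CD3 chains carry the receptor's signal. Cd3e had 5.44, 4.91, 3.21 and 5.27 CPM in controls, 2.83, 4.15, 2.94 and 6.01 CPM after 2 weeks, and 5.61, 4.88, 6.18 and 4.63 CPM after 5 weeks. Its groups overlapped in every comparison. Cd3d had 4.39, 3.16, 3.32 and 3.60 CPM in controls, 3.43, 2.53, 2.43 and 4.18 CPM after 2 weeks, and 4.30, 3.77, 10.4 and 3.60 CPM after 5 weeks. The 10.4 CPM of 5-week replicate 3 stood far above the other 11 libraries, none of which exceeded 4.39 CPM. Cd3g had 4.85, 3.09, 3.81 and 3.16 CPM in controls, 2.74, 2.53, 3.14 and 4.45 CPM after 2 weeks, and 3.84, 5.03, 7.49 and 5.04 CPM after 5 weeks. Replicate 3 was again the highest, and the ratio of Cd3d to Cd3e in it was 1.68, against 0.611 to 1.21 in the other 11 libraries.

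Trac, part of the receptor itself, had 5.34, 4.23, 2.72 and 3.25 CPM in controls, 3.46, 3.78, 3.65 and 5.48 CPM after 2 weeks, and 6.11, 4.16, 7.59 and 4.80 CPM after 5 weeks. The 5-week mean of 5.67 ± 1.52 CPM was 1.46 times the control mean of 3.88 ± 1.15 CPM (SD, n = 4 each), with overlapping groups. Il7r, the IL-7 receptor chain, had 12.5, 10.5, 8.35 and 12.8 CPM in controls, 6.39, 7.63, 7.71 and 11.3 CPM after 2 weeks, and 11.5, 10.1, 12.5 and 12.2 CPM after 5 weeks. The lowest 3 libraries for Il7r were 2-week replicates 1 to 3, and the 5-week libraries lay within the range of the controls. Cd5, the damper of receptor signalling, had 3.70, 1.83, 1.89 and 1.86 CPM in controls, 1.74, 2.43, 1.47 and 4.18 CPM after 2 weeks, and 3.84, 2.51, 4.25 and 2.72 CPM after 5 weeks. Control replicate 1 stood well above the other 3 controls.

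The coreceptor genes are used as markers of helper and cytotoxic T cells. Cd4 had 6.98, 5.71, 3.25 and 5.33 CPM in controls, 2.93, 4.67, 4.29 and 5.35 CPM after 2 weeks, and 5.11, 4.24, 4.81 and 4.54 CPM after 5 weeks. Its 5-week libraries had the smallest SD in CPM of any group of any member (0.373), and they lay inside the range of the controls. Cd8a had 5.83, 3.24, 3.13 and 5.08 CPM in controls, 3.21, 2.70, 3.45 and 5.71 CPM after 2 weeks, and 4.65, 4.16, 7.65 and 4.95 CPM after 5 weeks. Cd8b1 had 4.95, 3.31, 1.96 and 4.48 CPM in controls, 2.87, 2.17, 2.88 and 4.48 CPM after 2 weeks, and 4.84, 4.27, 7.12 and 3.90 CPM after 5 weeks. Both CD8 genes overlapped between all groups and were highest in 5-week replicate 3.

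Between 5 weeks and 0 weeks, 0 of the 10 members passed at an adjusted p of 0.05 (limma), as did 0% of all tested genes. At an unadjusted p under 0.05 there were 3 members, all higher after 5 weeks, and 8.63% of all tested genes (5.84% higher). Besides Lck these were Trac (log2 difference 0.45 ± 0.20, limma adjusted p = 0.571) and Cd3g (0.41 ± 0.19, limma adjusted p = 0.577). When 5-week replicate 3 was left out, Cd3g differed by 0.26, and Cd3d by 0.09 in place of 0.39. The log2 difference was above 0 for 9 members, against 55% of all tested genes. Cd4 was the exception at -0.12 ± 0.19 (45% of all tested genes were below 0). The median over the members was 0.39, against 0.02 over all tested genes. Leaving out 5-week replicate 3 gave 0.17, leaving out control replicate 3 gave 0.26, and leaving out the 3 libraries apart gave 0.16.

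**Figure D2:**
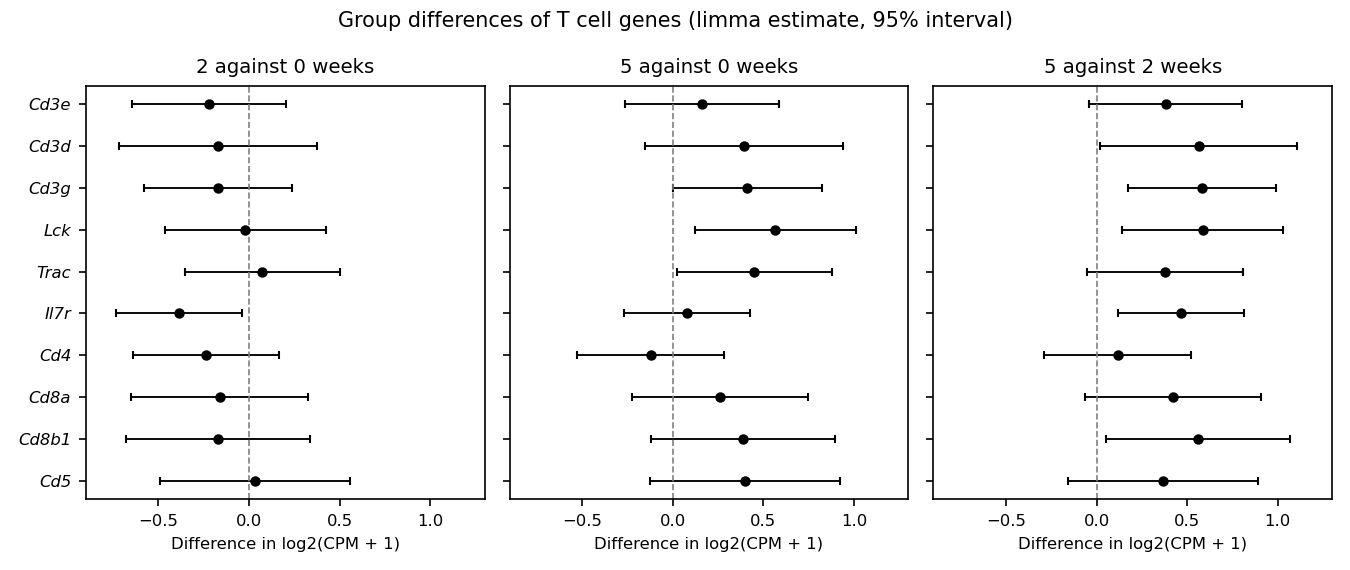
Log2 difference of each T cell gene with its 95% interval, from limma on log2(CPM + 1), for 5 against 0, 2 against 0 and 5 against 2 weeks. The points for 5 against 2 weeks are above 0 for all 10 genes, and Cd4 lies below 0 for 5 against 0 weeks.

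Between 2 weeks and 0 weeks, 0 of 10 members passed (limma), as did 0% of all genes tested. At an unadjusted p under 0.05 there was 1 member, against 9.24% of all tested genes (5.72% higher). This was Il7r, at 8.26 ± 2.13 CPM after 2 weeks and 11.0 ± 2.07 CPM in controls (SD, n = 4 each), with a log2 difference of -0.39 ± 0.16 (SE) and a limma adjusted p of 0.495. The difference was below 0 for 8 members, against 44.9% of all tested genes, and above 0 for Trac and Cd5. The median was -0.17 over the members and 0.02 over all tested genes. Leaving out control replicate 1 gave a median of -0.05, leaving out 2-week replicate 2 gave -0.07, leaving out 2-week replicate 1 gave -0.11, and leaving out 2-week replicate 4 gave -0.31. The groups overlapped for all 10 members, against groups that did not overlap for 3.37% of all tested genes higher and 1.95% lower. The sign for Lck, Trac and Cd5 depended on which library was left out.

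Between 5 weeks and 2 weeks, all 10 members had a log2 difference above 0, against 50.2% of all tested genes (49.8% below 0), and 0 of 10 passed (limma), as did 0% of all genes. At an unadjusted p under 0.05 there were 5 members, against 10.9% of all tested genes (6.18% higher). Cd3g differed by 0.58 ± 0.19 (limma adjusted p = 0.306), Il7r by 0.46 ± 0.16 (0.332) and Lck by 0.59 ± 0.21 (0.336). Cd8b1 differed by 0.56 ± 0.24 (limma adjusted p = 0.418) and Cd3d by 0.56 ± 0.25 (0.446), or by 0.26 when 5-week replicate 3 was left out. The groups overlapped for all 10, against 2.38% of all tested genes that did not overlap and were higher and 2.56% that were lower. In the 2-week group, replicate 4 was the highest for 10 of 10 members. Without 2-week replicate 4, Lck (0.78, limma adjusted p = 0.0411) and Il7r (0.61, adjusted p = 0.0453) passed, as 2 of 10 members and with 2.48% of all tested genes. The same 2 genes passed with limma's estimated weights for library quality, Lck at 0.62 (adjusted p = 0.0372) and Il7r at 0.52 (adjusted p = 0.0326), with 5.66% of all tested genes. The median of the members was 0.44, against 0.000732 over all tested genes. Leaving out 5-week replicate 3 gave 0.29, and leaving out the 3 libraries apart gave 0.23. Over all 3 groups, the moderated F-test of limma passed 0 of 10 members, with the lowest adjusted p for Lck (0.397). The 3 comparisons share groups of libraries and are not independent of each other.

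The members moved together from library to library. Their summed level averaged 51.3 ± 11.5 CPM in controls, 45.0 ± 12.9 CPM in 2-week mice and 65.0 ± 13.3 CPM in 5-week mice (SD, n = 4 each). The controls ran from 37.8 (replicate 3) to 65.5 CPM (replicate 1), so that 1 control exceeded 3 of the 5-week libraries. In the 2-week group, replicate 4 had 64.2 CPM and the other 3 had 36.8 to 40.0 CPM. In the 5-week group, replicate 3 had 84.5 CPM and the other 3 had 54.8 to 61.4 CPM. Replicate 3 was the highest of all 12 libraries for 8 of the 10 members.

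**Figure D3:**
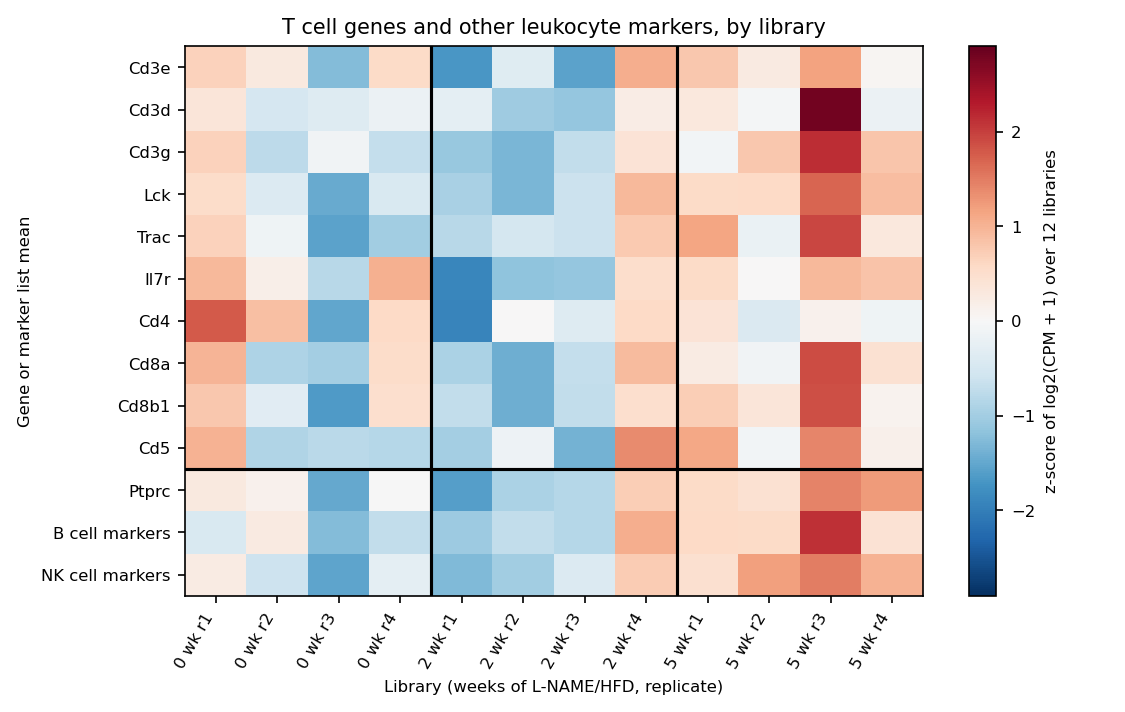
Standardised level (z-score over the 12 libraries) of each T cell gene, and below the line of Ptprc and the means of the B and NK cell marker lists, in each library by weeks of treatment. The column of 5-week replicate 3 is the highest for 8 of 10 genes, and those of control replicate 3 and 2-week replicates 1 to 3 are low across most genes.

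Across the 45 pairs of members, Pearson's r over the 12 libraries ran from 0.21 (Cd3d with Cd4) to 0.93 (Cd8a with Cd8b1), with a median of 0.76. With the group means removed the median was 0.73, and the highest r was 0.91, again for Cd8a with Cd8b1. The permutations below shuffled all 12 libraries across the 3 groups, so that group differences enter their p-values. Pairs of other genes were not tested, so these p-values do not set the pairs apart from others. Of 5 pairs that were tested, Cd8a and Cd8b1, the 2 chains of the CD8 coreceptor, had r = 0.929 (permutation p = 4e-05, adjusted p = 0.0002) and Spearman's rho = 0.93 (permutation p = 7e-05, adjusted p = 0.00035). Without the 2 libraries farthest from the median of Cd8a, r was 0.858. Cd3d and Cd3g had r = 0.834 (permutation p = 0.00091, adjusted p = 0.00152) and rho = 0.797 (permutation p = 0.00299, adjusted p = 0.00439), and r was 0.707 without 2 libraries. Il7r and Cd3e had r = 0.886 (permutation p = 0.00036, adjusted p = 0.0009) and rho = 0.783 (permutation p = 0.0034, adjusted p = 0.00439), and r was 0.885 without 2 libraries. Cd3e and Trac had r = 0.754 (permutation p = 0.0047, adjusted p = 0.00587) and rho = 0.79 (permutation p = 0.00351, adjusted p = 0.00439), and r was 0.813 without 2 libraries. Cd4 and Cd8a did not pass, with r = 0.508 (permutation p = 0.0914, adjusted p = 0.0914) and rho = 0.566 (permutation p = 0.0588, adjusted p = 0.0588), and r was 0.339 without 2 libraries.

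**Figure D4:**
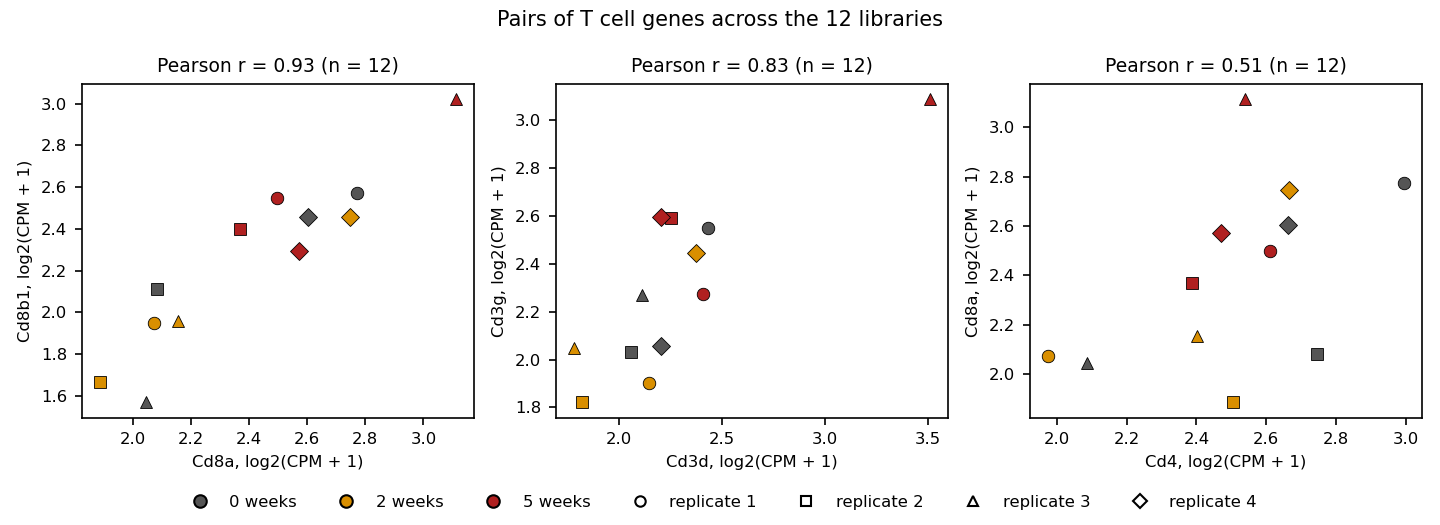
Levels of 3 pairs of T cell genes, in log2(CPM + 1), with 1 point for each of the 12 libraries, coloured by weeks of treatment and shaped by replicate. The points of Cd8a and Cd8b1 follow a line (r = 0.93), whereas those of Cd4 and Cd8a scatter (r = 0.51).

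Ratios of 2 genes within a library do not move with the scaling of libraries. Cd4 over Cd8a was 1.10, 1.02, 0.629 and 0.917 in the 5-week libraries and 1.20, 1.77, 1.04 and 1.05 in the controls. The geometric means were 0.896 after 5 weeks and 1.23 in controls, and the log2 difference of -0.46 did not pass (exact two-sided permutation p = 0.114, adjusted p = 0.539 over 12 tests). It was -0.285 when control replicate 2 was left out, -0.288 when 5-week replicate 3 was left out, and -0.115 when the 3 libraries apart were left out. Lck over Cd3e averaged 2.47 after 5 weeks and 1.84 in controls, a log2 difference of 0.42 (exact permutation p = 0.0571, adjusted p = 0.539). Cd8b1 over Cd8a averaged 0.941 after 5 weeks and 0.832 in controls (exact permutation p = 0.4, adjusted p = 0.6). Il7r over Cd3e averaged 2.18 after 5 weeks and 2.36 in controls (exact permutation p = 0.314, adjusted p = 0.539). None of the 12 tests of these 4 ratios passed, and 4 against 4 libraries allow no p below 0.0286.

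The members were also set against Ptprc, which encodes CD45, a surface protein of all white blood cells. This scaling was chosen after the values were seen. Ptprc had 148 ± 27.0 CPM after 5 weeks and 97.1 ± 25.2 CPM in controls (SD, n = 4 each), a log2 difference of 0.63 ± 0.25 (limma adjusted p = 0.552). Relative to Ptprc the 5-week mean was lower than the control mean for 10 of 10 members, and likewise for 98.3% of all tested genes. Cd4 was 3.99, 3.46, 2.71 and 2.76% of Ptprc in the 5-week libraries and 6.04, 5.24, 5.41 and 5.14% in the controls, a ratio of the geometric means of 0.585. Cd4, Il7r (0.682) and Cd3e (0.738) each lay below every control in all 4 of the 5-week libraries. Each had an exact permutation p of 0.0286, the smallest possible, and an adjusted p of 0.0952 over the 10 members. Of all tested genes, 32.3% did not overlap in that direction, so 3 of 10 is near the background.

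The tested genes most like the members over the 12 libraries, by Pearson's r with the mean of the members' z-scores, were Siglech (0.968), Spi1 (0.965), Cd300c2 (0.961), Cd84 (0.960) and Mcemp1 (0.959). Il18 (0.956), Ms4a6b (0.953), Clec7a (0.953) and Klra2 (0.950) were also among the first 10. Siglech marks plasmacytoid dendritic cells, Spi1 encodes the myeloid and B cell factor PU.1, and Clec7a encodes the beta-glucan receptor of myeloid cells.

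Other genes of the receptor pathway were counted from lists of known function. As background, 55% of all tested genes were higher after 5 weeks than in controls. Of 20 signalling genes, 16 were higher after 5 weeks than in controls, with a median log2 difference of 0.34, and 0 passed (limma; 5 at an unadjusted p under 0.05, against 8.63% of all tested genes). Among them, the kinase gene Txk averaged 2.71 ± 0.343 CPM after 5 weeks and 1.69 ± 0.256 CPM in controls (SD, n = 4 each; limma adjusted p = 0.513). The adaptor gene Lcp2, which other white blood cells also express, averaged 17.2 ± 3.24 CPM after 5 weeks and 10.8 ± 2.78 CPM in controls (adjusted p = 0.517). All 3 tested receptor constant regions were higher, by a median of 0.44, and 1 of 3 was at an unadjusted p under 0.05. This was Trdc of the delta chain (0.46 ± 0.18, limma adjusted p = 0.543), while Trbc2 differed by 0.44 ± 0.25 (limma adjusted p = 0.645). Of 10 transcription factors of the lineage, 8 were higher, by a median of 0.13, and 0 were at an unadjusted p under 0.05, with Id3 at 0.20 ± 0.12 (limma adjusted p = 0.660) and Lef1 at 0.19 ± 0.12 (adjusted p = 0.667). None of these lists had a gene past the threshold. How much other lung cells add to the levels of these genes was not tested.

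Genes used as markers of T cell states were counted in lists of their own. How much of their level in whole lung comes from T cells was not tested. In controls the naive list genes Klf2 and S1pr1 averaged 599 and 408 CPM, against 4.71 CPM for Cd3e. For 5 against 0 weeks, 55% of all tested genes were higher and 8.63% were at an unadjusted p under 0.05 (limma). Of 4 tested naive and recirculating genes, 3 were higher after 5 weeks, by a median of 0.46, with 0 passing (limma; 2 at an unadjusted p under 0.05). The homing receptor gene Ccr7 averaged 28.7 ± 5.21 CPM after 5 weeks and 15.8 ± 2.05 CPM in controls (SD, n = 4 each, limma adjusted p = 0.393). Its groups did not overlap, against 3.65% of all tested genes in that direction. The same held for Txk, Lcp2, Trdc, Cd69, Ccl5, Il2rg, Fcer2a, Nkg7 and Klra8. These genes were picked by their p-values, so their number cannot be set against that share. Of 9 tested effector and resident genes, 5 were higher, by a median of 0.14 (limma; 0 passed, 4 at an unadjusted p under 0.05). The early activation gene Cd69 averaged 9.99 ± 3.02 CPM after 5 weeks and 3.84 ± 0.366 CPM in controls, 2.60 times as high (limma adjusted p = 0.260), and the chemokine gene Ccl5 averaged 25.9 ± 2.58 CPM after 5 weeks and 15.5 ± 3.17 CPM in controls (adjusted p = 0.452). Of 5 tested regulatory T cell genes, 3 were higher, by a median of 0.03, and 0 were at an unadjusted p under 0.05, with Il2ra at -0.22 ± 0.12 (limma adjusted p = 0.635) and Tnfrsf4 at -0.28 ± 0.17 (adjusted p = 0.658). Of 8 genes of the IL-7 receptor pathway, 5 were higher, by a median of 0.03, and 1 was at an unadjusted p under 0.05, with Il2rg at 0.23 ± 0.08 (limma adjusted p = 0.543) and Il15 at 0.22 ± 0.13 (adjusted p = 0.652).

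Summed B and NK cell markers were highest of their group in 2-week replicate 4 and 5-week replicate 3, as most members were. The background for 5 against 0 weeks was 55% of all tested genes higher and 8.63% at an unadjusted p under 0.05 (limma). The 10 B cell markers were all higher after 5 weeks than in controls, by a median of 0.71 (limma; 0 passed, 9 at an unadjusted p under 0.05), and summed to 228 to 457 CPM after 5 weeks and 120 to 211 CPM in controls. In 5-week replicate 3 they summed to 457 CPM, and in 2-week replicate 4 to 286 CPM, the highest of each group. The B cell gene Fcer2a, of the low-affinity IgE receptor, had a log2 difference of 1.01 ± 0.27 (limma adjusted p = 0.463). The 12 NK cell markers were all higher, by a median of 0.64 (limma; 0 passed, 8 at an unadjusted p under 0.05), and summed to 93.7 to 143 CPM after 5 weeks and 46.8 to 88.4 CPM in controls. Nkg7, of cytotoxic granules, averaged 11.9 ± 1.32 CPM after 5 weeks and 6.17 ± 1.77 CPM in controls (limma adjusted p = 0.328), and Klra8 had a log2 difference of 0.78 ± 0.19 (adjusted p = 0.379). Nkg7 and Ccl5 are expressed by cytotoxic T cells as well. The part of these cells in the members' differences was not tested.

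In the other 2 comparisons none of these lists had a gene past the threshold (limma). Among all tested genes, 55.1% were higher for 2 against 0 weeks and 50.2% for 5 against 2 weeks. For 2 against 0 weeks, 5 of the 20 signalling genes were higher (median -0.11), with 7 of 12 NK cell markers (0.01) and 7 of 10 B cell markers (0.18). For 5 against 2 weeks, 18 of the 20 signalling genes were higher (median 0.42), with 12 of 12 NK cell markers (0.64) and 10 of 10 B cell markers (0.72).

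At an unadjusted p under 0.05 there was 1 ILC2 marker, 1 marker of type 1 conventional dendritic cells, 1 lung tissue marker, and 0 markers of plasmacytoid dendritic cells or adipocytes, and 0 of these passed (limma). Of 5 tested ILC2 markers, 2 were higher after 5 weeks than in controls (median -0.21), with Klrg1 at 0.62 ± 0.21 (limma adjusted p = 0.517) and Rora at -0.21 ± 0.11 (adjusted p = 0.621). Of 5 markers of type 1 conventional dendritic cells, 3 were higher (median 0.09), with Xcr1 at -0.34 ± 0.15 (limma adjusted p = 0.575) and Irf8 at 0.14 ± 0.10 (adjusted p = 0.687). Of 4 tested plasmacytoid dendritic cell markers, 3 were higher (median 0.25), with Ccr9 at 0.34 ± 0.17 (limma adjusted p = 0.594) and Siglech at 0.34 ± 0.19 (adjusted p = 0.645). The 6 tested red cell markers were all higher (median 1.45; limma, 0 passed, 6 at an unadjusted p under 0.05), with Alas2 at 1.46 ± 0.47 and Bpgm at 0.56 ± 0.19 (limma adjusted p = 0.517 for both). Red cell markers summed to between 1509 and 16211 CPM after 5 weeks, with the highest in replicate 3, and between 1235 and 2604 CPM in controls. Of 6 adipocyte markers, 1 was higher (median -1.01), with Cfd at -1.72 ± 0.99 (limma adjusted p = 0.650) and Retn at -1.33 ± 0.81 (adjusted p = 0.662). Adipocyte markers summed to between 32.9 and 131 CPM after 5 weeks and between 33.8 and 1435 CPM in controls, with the highest in replicate 2. Of 6 lung tissue markers, Ptprc among them, 3 were higher (median 0.05). These counts stand against 55% of all tested genes higher and 8.63% at an unadjusted p under 0.05 (limma) for 5 against 0 weeks. The relation of blood and fat content to the members was not tested.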

How the data were processed

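The authors deposited 1 table of CPM values for the 12 libraries, with an offset of 0.0001 in every cell. Per the submitters' processing notes, TopHat2, Partek and mm10 belong to the processing, with no order or role given; for versions, annotation and strandedness the sources used here give nothing. Columns of other samples numbered 0. The single-cell experiment that the series describes was not analysed here.

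Genes averaging at least 1 CPM were analysed as log2(CPM + 1), which understates changes of low genes, with limma 3.58.1 (trend) in R 4.3.3, over all 12 libraries. P-values were two-sided and Benjamini-Hochberg adjusted over the 15562 tested genes, threshold 0.05. They set a group difference against the spread between libraries, each of which came from another mouse. Ratios were tested by exact permutation, and relations between genes by 100000 permutations of all 12 libraries across groups. Levels per kilobase used exon lengths of GENCODE M21, an annotation of GRCm38, matched by gene identifier and not by position. Of the values from 1 to 20 steps, 87.2% to 87.9% lay within 0.1 of a whole step, so no count model was fitted; all 120 of the members' values lay within 0.02 of one. Libraries differed in all 66 pairs.

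All 10 members are given; from each list, genes past the threshold or else the 2 with the smallest p for 5 against 0 weeks; and the 10 genes most like the members. Among the genes that this rule names, 2 are left out of the text. The members and lists were chosen with earlier results of these data known. On data simulated for 5 against 0 weeks (5 runs, 15510 genes in the first), limma recovered 35.6% of genes changed 1.5-fold and 97.2% of those changed 2-fold. Alternatives covered pseudocounts, filters, scaling, library weights, robust moderation, the groups fitted and each library left out. Python 3.11.15, numpy 2.4.6, pandas 2.3.3, scipy 1.17.1 and matplotlib 3.10.9 were used.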

Additional observations from a re-analysis of the deposited data

Results flagged for a closer look

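In 30 groups of 4 libraries, the gap from the most extreme library to its nearest neighbour was divided by the range of the group on the log2(CPM + 1) scale, a rule that chance alone meets in about 1 in 20 groups. Cd3d in 5-week replicate 3 stood at 10.4 CPM, against 3.60 to 4.30 CPM in the other 3 libraries of that group, a gap of 0.844 of the range. Cd5 in control replicate 1 stood at 3.70 CPM, against 1.83 to 1.89 CPM in the other 3 controls, a gap of 0.959 of the range.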

How the results depend on the processing

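No member passed for 5 against 0 or 2 against 0 weeks under any alternative run. For 5 against 2 weeks, library weights gave 2 members and 881 genes called, and leaving out 1 library gave 0 to 2 members and 0 to 386 genes, the highest without 2-week replicate 4; the cause was not tested. For 2 against 0 weeks, library weights gave 18 genes, and leaving out 1 library 0 to 24, with 24 without 5-week replicate 3. For 5 against 0 weeks the range was 0 to 1.

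Signs changed as follows, none past the threshold, and the cause was not tested. For 2 against 0 weeks, Lck was 0.00397, Cd4 over Cd8a 0.062 and Cd8b1 over Cd8a 0.089 without the 3 libraries that stand apart; Trac was -0.0798 and Cd5 -0.13 with library weights, and Cd5 -0.00373 after quantile normalization. Leaving out 1 library gave Lck -0.22 to 0.11, Trac -0.0482 to 0.21, Cd5 -0.18 to 0.21, Cd4 over Cd8a -0.272 to 0.092 and Cd8b1 over Cd8a -0.144 to 0.092 for 2 against 0 weeks. For 5 against 0 weeks it gave Il7r -0.0397 to 0.15 and Cd4 -0.30 to 0.00303. For 5 against 2 weeks it gave Cd4 -0.0221 to 0.21, Il7r over Cd3e -0.056 to 0.136 and Lck over Cd3e -0.003 to 0.27. Relative to Ptprc, an alternative chosen after seeing the data, it gave Cd3d -0.43 to 0.043, Cd3g -0.285 to 0.104, Lck -0.078 to 0.047, Trac -0.199 to 0.041, Cd8b1 -0.23 to 0.028 and Cd5 -0.24 to 0.071. There, Cd4, Il7r, Cd3e and Cd8a stayed below 0 in every alternative, a direction that 98.3% of all tested genes share.

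The median log2 difference of the members for 5 against 0 weeks was 0.16 with library weights and 0.20 with a pseudocount of 5. For 2 against 0 weeks it was -0.31 with library weights and -0.0885 with a pseudocount of 5. A filter of 10 CPM kept 2 members. No paired analysis was possible because the replicate numbers only name libraries and pair no mice across groups.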
